A study of Saccharomyces cerevisiae with 6 samples.

Results

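The proteasome genes are the 33 genes for the structural subunits of the yeast proteasome, together with *RPN4*, which encodes the transcription factor of these genes, *UMP1*, which encodes an assembly factor, and *BLM10*, which encodes an activator. They were chosen by name rather than by a measured value, though with earlier results of these data known. All 36 had a row among the 5297 genes of the deposited table. The mRNA was taken 4 h into meiosis, at 30 °C in sporulation medium with acetate, from diploids of the SK1 background. There were 3 *SPO11* cultures and 3 *spo11-YF* cultures. The *spo11-YF* cells carry a form of Spo11 whose catalytic tyrosine was changed to phenylalanine, with an HA tag and a *URA3* marker beside it, and form no meiotic DNA breaks. The *SPO11* cells carry the functional gene and form breaks. Both strains are homozygous for *ndt80Δ::TRP1*, which arrests cells before the exit from meiotic prophase, for *pph3Δ::LEU2*, which removes the catalytic subunit of protein phosphatase 4, and for *ho::LYS2* in a *lys2* background. The genotypes list a further *LEU2* or *LEU* allele on each parent of the *SPO11* cells and a further *TRP1* allele for *spo11-YF* cells. With *ndt80Δ* and *pph3Δ*, all cultures are an arrested, phosphatase-deficient model of prophase rather than wild-type meiosis.

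The level used here is the authors' mean normalized count of each gene over all libraries, in which *SPO11* and *spo11-YF* cultures are combined. It has no value per culture, so neither the spread between cultures nor the depth of a single library is known, no error can be put on a level, and close neighbours in an order of genes cannot be told apart. The fold changes and p-values of the authors' own comparison of the strains were not used, and a difference between *SPO11* and *spo11-YF* cells was not analysed here. Because a longer mRNA yields more reads, levels of different genes were compared per kb of coding length. Levels were also taken with 200 bases added to each length for the untranslated ends. Where this changed the highest or lowest proteasome gene of a group, it is stated. Other changes of order are not all stated, and the other gene lists are given by coding length alone. Coding lengths were those of S288C (assembly R64), where the systematic names of 5276 of the 5297 genes were found.

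The proteasome is the protease that degrades proteins tagged with ubiquitin. Its core particle is a barrel of alpha and beta rings, in which 3 of the beta subunits cut peptide bonds inside a closed chamber. The regulatory particle caps the barrel: its base holds a ring of ATPases that unfold and thread the substrate, and its lid removes the ubiquitin chain. Rpn4 binds a short promoter element, named PACE for proteasome-associated control element, and is itself a very short-lived substrate of the proteasome, so that it accumulates when proteasome activity is short. In budding yeast meiosis, proteasomes are found on the axes of prophase chromosomes.

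The mean normalized counts of all 5297 genes added up to 2759217, with a median gene at 218.5 counts, or 165 counts per kb. All 10 listed markers of meiotic prophase had a row, with a median of 2313 counts per kb. The highest value, 7007 counts per kb, was that of *DMC1*, the meiotic strand exchange gene, and the lowest, 401 counts per kb, that of *MEI4*. The 9 listed genes that depend on Ndt80 had a median of 82.9 counts per kb and did not exceed 322 counts per kb, the value of *SPR28*. *CLB1* was the lowest of them, at 16.8 counts per kb. *MEI4* thus lay closer to *SPR28* than to the median of the prophase markers. *NDT80* and *PPH3*, which both strains lack, had no row among those analysed here, so their deletion was not checked.

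Proteasome mRNAs were abundant throughout. The 36 genes made up 0.68% of the genes and held 2.86% of all normalized counts, 78826 in sum. Their median level was 1809 counts per kb, which is 11.0 times that of the median gene, and the median member lay at percentile 96.9 of all genes with a length. Every one of the 36 genes lay above the 75th percentile of all genes, which was 339 counts per kb, and 35 lay above the 90th, which was 726 counts per kb. The gene below this line was *BLM10*, with 575 counts per kb. With 200 bases added, 34 lay above the 90th percentile, which was then 605 counts per kb, and *RPN13* was the other gene below it. Of the 36 genes, 32 lay above the 95th percentile. No stretch of 31 bases was shared between the coding sequence of a proteasome gene and that of any other gene in S288C.

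**Figure D1:**
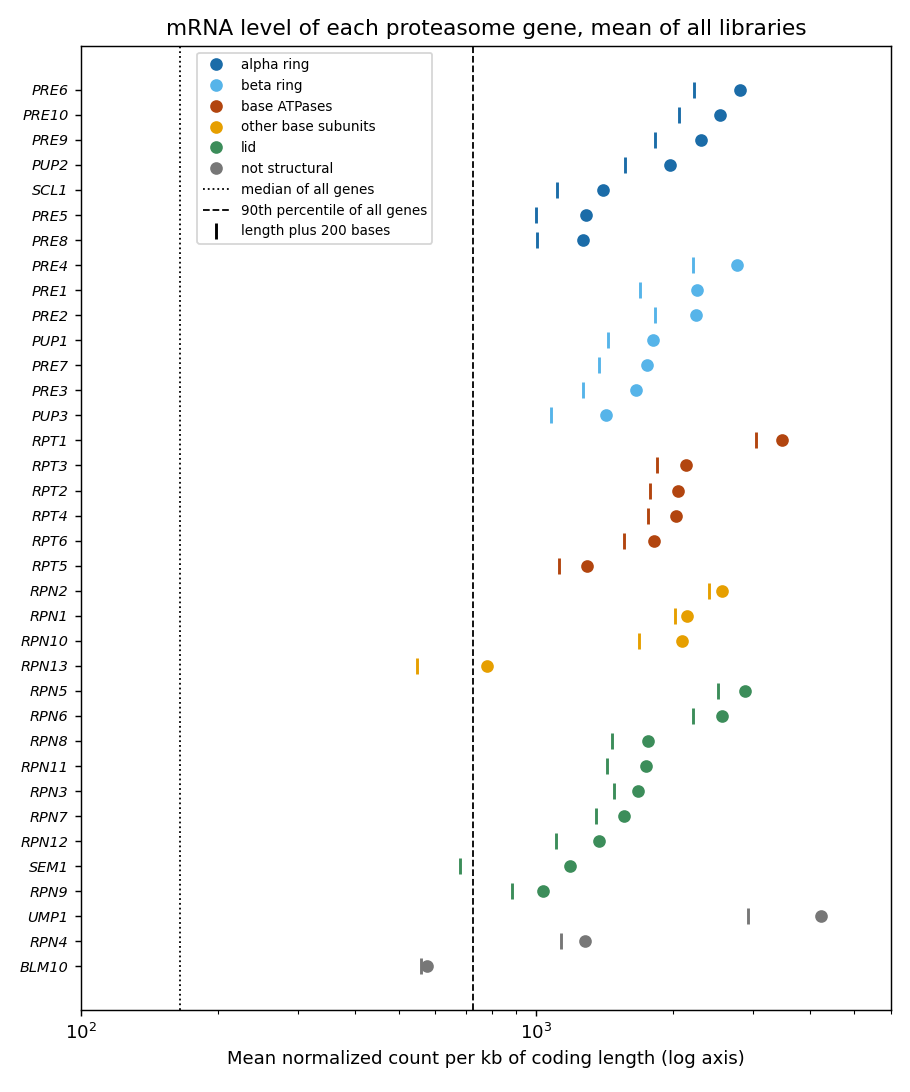
Level of each of the 36 proteasome genes, as the authors' mean normalized count over all libraries per kb of coding length on a log axis, with the genes grouped by subcomplex. Circles use the coding length and ticks the coding length plus 200 bases. The vertical lines mark the median of all genes (165 counts per kb) and their 90th percentile (726 counts per kb), both by coding length alone. They apply to the circles only, as the 90th percentile with 200 bases added is 605 counts per kb. With the coding length, all genes but *BLM10* lie to the right of the 90th percentile.

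The alpha ring forms the outer gate of the core particle and is built from 7 different subunits. The highest level among them was that of *PRE6*, with 2804 counts per kb, followed by *PRE10* with 2532 and *PRE9* with 2296 counts per kb. *PRE9* encodes the only core subunit that yeast can live without. *PUP2* was at 1970.5 counts per kb, the median of the ring. The lower 3 genes were *SCL1* with 1401, *PRE5* with 1284 and *PRE8* with 1267 counts per kb. The ratio of the highest to the lowest, *PRE6* over *PRE8*, was 2.21. With 200 bases added, *PRE5* and *PRE8* were level, at 1000.5 and 1001 counts per kb.

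The beta ring, also of 7 subunits, holds the proteolytic sites and had the narrowest range of the subcomplexes described here, with a ratio of 1.94 between its highest and lowest gene. *PRE4* was the highest, with 2761 counts per kb, and *PUP3* the lowest, with 1424 counts per kb. Neither encodes an active protease subunit. *PRE2*, whose product has the chymotrypsin-like activity, was at 2245 counts per kb. *PUP1*, with the trypsin-like activity, was at 1800.5, and *PRE3*, with the caspase-like activity, at 1655 counts per kb. These 3 catalytic genes had a median of 1800.5 counts per kb, against 2003 for the other 4 beta genes, and the ranges overlapped, with *PRE1* at 2256 and *PRE7* at 1749 counts per kb.

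The 6 ATPases of the base, *RPT1* to *RPT6*, form the ring that pulls substrates into the core. *RPT1* had the highest level of all structural subunits, with 4867 mean normalized counts or 3466 counts per kb. The ATPase genes *RPT3*, *RPT2*, *RPT4* and *RPT6* lay close together, at 2132, 2046, 2022 and 1818 counts per kb. *RPT5* was lower, at 1294 counts per kb, so that the ratio of *RPT1* to *RPT5* was 2.68 although the ring takes up equal numbers of both.

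The other base subunits were less even. *RPN2* and *RPN1* encode the large scaffolds of the base, and had 7276 and 6404 mean normalized counts. Per kb they were at 2564 and 2148 counts, within the range of the other subunits. *RPN10*, which encodes a ubiquitin receptor, was at 2093 counts per kb. *RPN13*, which encodes another ubiquitin receptor, was the lowest of all structural subunits, with 366 mean normalized counts or 778 counts per kb, and the ratio of *RPN10* to *RPN13* was 2.69.

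Within the 9 lid genes, *RPN5* was the highest with 2878 counts per kb, followed by *RPN6* with 2552 counts per kb. Rpn6 links the lid to the core particle. *RPN11*, which encodes the deubiquitinating enzyme of the lid, and *RPN8*, which encodes its partner, were nearly level, at 1740.3 and 1755 counts per kb. The scaffold genes *RPN3*, *RPN7* and *RPN12* were at 1669, 1561 and 1376 counts per kb. *RPN9* was the lowest lid gene, at 1033 counts per kb, and the ratio of *RPN5* to *RPN9* was 2.79. *SEM1*, the shortest member with 270 coding bases, was at 1183 counts per kb. With 200 bases added *SEM1* was the lowest lid gene, at 679 counts per kb, against 883 counts per kb for *RPN9*.

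The medians of the subcomplexes differed little. They were 1970.5 counts per kb for the alpha ring, 1800.5 for the beta ring, 2034 for the ATPases, 2120.5 for the other base subunits and 1669 for the lid. The core particle as a whole had a median of 1885 counts per kb and the regulatory particle one of 1818, a ratio of 1.04 that turned to 0.96 with the 200 bases added. Of the 33 structural subunits, 32 lay within 2-fold of their common median of 1818 counts per kb, and the gene outside was *RPN13*. With 200 bases added, 31 lay within 2-fold of the median, and *SEM1* was also outside. Counts were higher with coding length over the 33 subunits (Spearman correlation 0.86, against 0.47 over all 5276 genes), which is a description across genes that share the same libraries. Per kb, the correlation with length was 0.42 over the 33 subunits and -0.08 over all genes, so that longer subunits tended to have the higher level per kb.

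**Figure D2:**
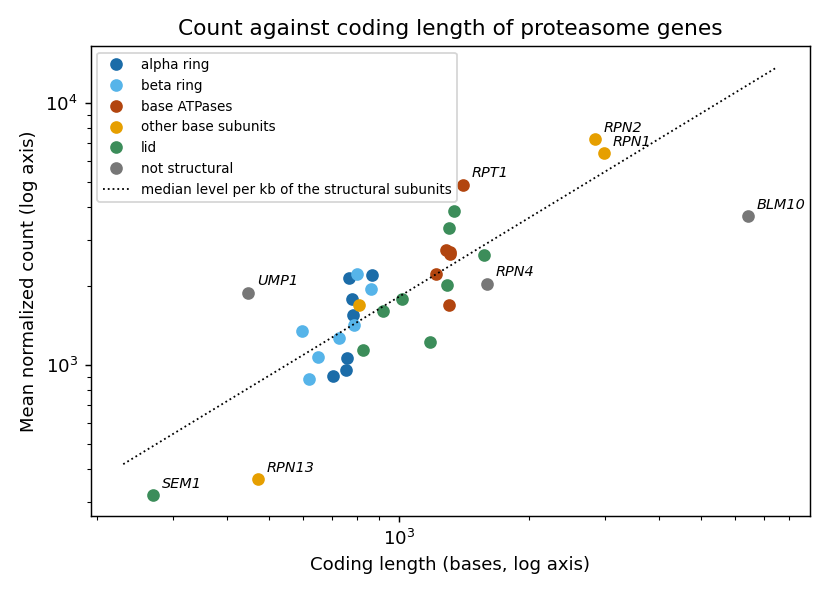
Mean normalized count of each proteasome gene against its coding length, both on log axes, with the genes coloured by subcomplex. The dotted line marks the median level per kb of the 33 structural subunits (1818 counts per kb). *UMP1* lies above the line, and *SEM1*, *RPN13*, *RPN4* and *BLM10* lie below it.

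The non-structural genes held the extremes of the list. *UMP1*, whose product is enclosed in the maturing core particle and is degraded when the particle is complete, had the highest level of the 36 genes, with 1888 mean normalized counts or 4223 counts per kb, 2.32 times the structural median. *UMP1* has only 447 coding bases. With 200 bases added it was behind *RPT1*, at 2918 counts per kb for *UMP1* and 3034 counts per kb for *RPT1*. *BLM10*, which encodes an alternative cap of the core particle, is the longest gene of the list with 6432 coding bases. It was the lowest member at 575 counts per kb, with the structural median 3.16 times higher, but with 200 bases added *RPN13* was lower, at 546 against 558 counts per kb for *BLM10*. *RPN4* had 2039 mean normalized counts or 1278 counts per kb, which is percentile 95.1 of all genes and 0.70 times the structural median. The mRNA of the transcription factor thus lay within the range of the subunit genes, next to *PRE5* at 1284 and *PRE8* at 1267 counts per kb. With 200 bases added *RPN4* was at 1135 counts per kb, above both.

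The structural subunits were also set beside other assemblies and the rest of the pathway. On the log2 scale, the SD of the level per kb over the 33 structural subunits was 0.47, against 1.56 over all genes. The chaperonin that folds actin and tubulin, with 8 genes, had an SD of 0.30 and a median of 680 counts per kb, with *CCT3* highest at 923 and *TCP1* lowest at 458 counts per kb. The 10 listed genes of RNA polymerase II with a row had an SD of 0.70 and a median of 149 counts per kb. *RPO21* was highest at 421 and *RPB10* lowest at 61.7 counts per kb, the latter from a mean of only 13.1 normalized counts. All others of these genes lay between 106 and 209 counts per kb. The 13 genes of the anaphase-promoting complex, a ubiquitin ligase that supplies the proteasome with cell cycle proteins, had an SD of 1.47 and a median of 241 counts per kb, with *DOC1* highest at 1553 and *APC5* lowest at 49.7 counts per kb. The SD of the proteasome thus lay between that of the chaperonin and that of RNA polymerase II. The latter depends on *RPO21* and *RPB10*, and the order of the SDs without them was not tested. These SDs describe the spread between genes, with no test between the assemblies.

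Not all genes of the pathway shared the level of the subunits. The 10 listed assembly chaperones and adaptors had a median of 188 counts per kb, close to that of all genes. The lowest was *POC4*, which encodes a chaperone of alpha ring assembly, at 30.5 counts per kb from a mean of only 13.6 normalized counts. The highest was *TMA17*, which encodes a chaperone of base assembly, at 4591 counts per kb with only 453 coding bases. Only *TMA17* exceeded the median of the proteasome genes. *ECM29*, which encodes a scaffold that binds core and cap, was at 577 counts per kb. The 15 listed genes for ubiquitin, its enzymes and shuttle proteins had a median of 916 counts per kb, and 5 of them exceeded the median of the proteasome genes. These were *UBI4*, a tandem repeat of ubiquitin, at 3592 counts per kb, *UBC5*, a ubiquitin-conjugating enzyme, at 3180.0, *CDC48*, the segregase ATPase, at 3144, *DSK2* at 3078 and *RAD23* at 2344 counts per kb, the last pair being shuttles that carry ubiquitinated proteins to the proteasome. The lowest gene of this list was *UFD4*, a ubiquitin ligase, at 278 counts per kb. *UBI4* shares its repeat with other ubiquitin genes and *UBC5* has the close paralog *UBC4*, at 756 counts per kb, so that the reads of these genes are less certain. The 7 listed regulators of *RPN4* had a median of 392 counts per kb, and all of them were below *RPN4*. *MUB1*, a partner of the ubiquitin ligase Ubr2 that targets Rpn4, was the highest at 856 counts per kb. *YAP1* and *HSF1*, stress transcription factors that act on *RPN4*, were at 820 and 616 counts per kb, and *PDR3*, another activator, was the lowest at 72.4 counts per kb.

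**Figure D3:**
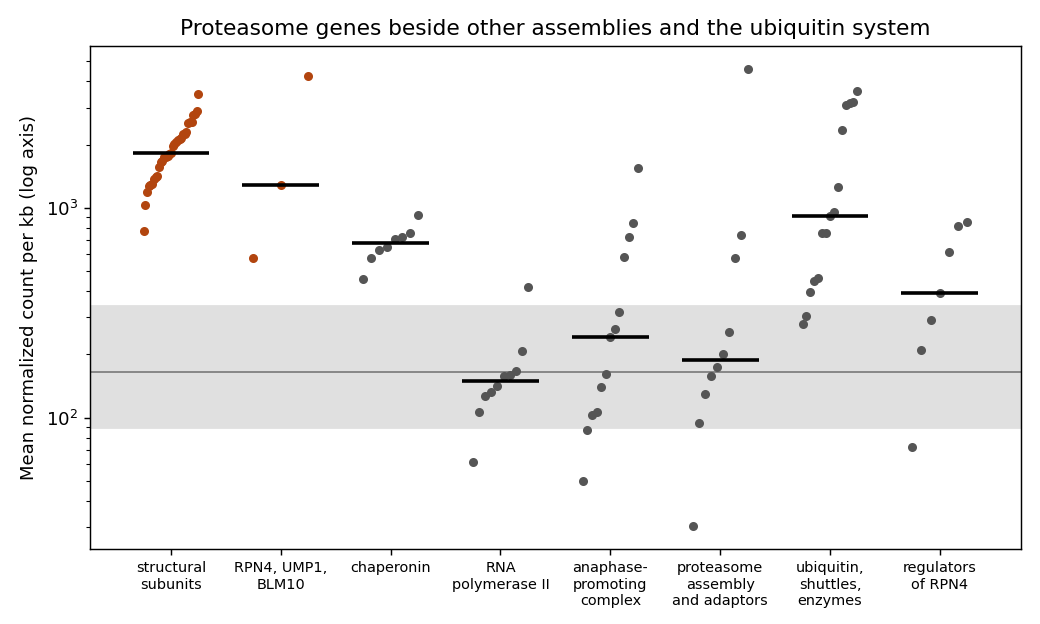
Mean normalized count per kb (log axis) of the structural subunits and of *RPN4*, *UMP1* and *BLM10* at the left, and of 3 other assemblies and 3 lists of the ubiquitin-proteasome pathway at the right. Each point is a gene, horizontal bars are medians, the grey band spans the 25th to the 75th percentile of all genes (89.0 to 339 counts per kb) and the grey line is their median. All 33 structural subunits lie above the band.

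The promoters of the 36 genes were searched for the element of Rpn4, because it is the sequence that these genes are known to share. The search covered 250 bases before and 50 bases after the start codon in S288C, on either strand. SK1 promoters can differ from these, and the cells of this study were SK1. The element and its core read as follows:
PACE: GGTGGCAAA
PACE core: GGTGGCA
The full PACE was found in 27 of the 36 windows (75.0%), against 72 of the 6020 windows of all protein-coding genes (1.20%). Hence 27 of the 72 windows with a PACE belong to proteasome genes. A further 7 belong to neighbouring genes whose window holds the same copy of the element as that of a proteasome gene. Searching for the core gave the same count of 27 proteasome genes, but 173 of all windows (2.87%). With only the bases before the start codon searched, the full PACE was found in 68 of all windows and again in 27 proteasome genes. These counts describe letters and carry no measurement of Rpn4 binding.

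All 6 ATPase genes held a PACE, as did 6 of 7 alpha genes, 6 of 7 beta genes, 7 of 9 lid genes and 2 of the 4 other base genes. No window held more than 1 copy. The copies lay between position -175, in *PUP3*, and position -76, in *RPT6*, where the position is that of the base of the element nearest the start codon, counted in bases before it. Their median position was -112, and 23 of the 27 lay between 150 and 75 bases before the start codon. On the coding strand there were 19 copies and on the other strand 8, among them those of *RPT1*, *RPT4*, *PRE4*, *PRE6*, *SCL1* and *RPN12*.

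**Figure D4:**
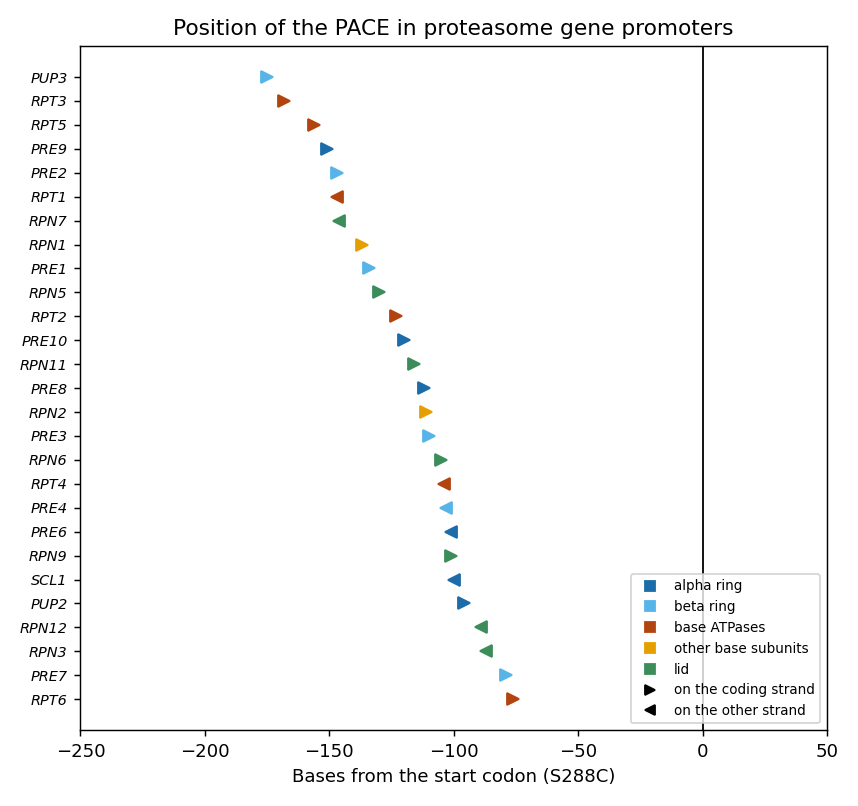
Position of the PACE in the 27 proteasome gene windows that hold it, in bases from the start codon in S288C, with the genes ordered by position and coloured by subcomplex. Triangles to the right are on the coding strand and triangles to the left on the other strand. All copies lie from -175 to -76.

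The 9 windows without a PACE were those of *PRE5*, *PUP1*, *RPN8*, *RPN10*, *RPN13*, *SEM1*, *RPN4*, *UMP1* and *BLM10*. With 1 mismatch allowed, the 6 structural subunits among them also had a copy, so that all 33 structural genes held the element with at most 1 mismatch, against 454 of all 6020 windows (7.54%). The mismatches took only 2 forms. Counting from 1 at the 5′ end of the PACE and giving the PACE base before the promoter base, *PRE5*, *PUP1* and *RPN8* had G1A, at positions -139, -150 and -164. *SEM1*, *RPN10* and *RPN13* had A7G, at positions -103, -93 and -106. These positions were within the range of the exact copies. *RPN4*, *UMP1* and *BLM10* had no copy even with 1 mismatch in this window.

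The levels of genes with and without the element overlapped. The 27 genes with a PACE had a median of 2022 counts per kb and ranged between 1033 and 3466 counts per kb. The 9 genes without had a median of 1284 counts per kb and a wider range, between 575 counts per kb for *BLM10* and 4223 counts per kb for *UMP1*, both of them non-structural. The 6 structural subunits without an exact PACE ranged between 778 counts per kb for *RPN13* and 2093 counts per kb for *RPN10*, and 5 of them lay below the median of the 27 genes with a PACE. Among the 5240 other genes of the table with a window, 42 (0.80%) held a PACE and had a median of 474 counts per kb, against 163 for those without. These 42 include neighbouring genes whose only counted copy may be that of a proteasome gene. No median was taken without them. Of the pathway lists, *UBI4*, *UBA1* and *CDC48* held a PACE, as did *ECM29* and *YAP1*. *UBA1*, at 446 counts per kb, lay below the median of its list, 916, and *UBI4*, *CDC48*, *ECM29* and *YAP1* lay above the medians of theirs. In the other assemblies, *CCT6* and *DOC1* held a PACE. *DOC1* was the highest gene of the anaphase-promoting complex, and *CCT6*, at 652 counts per kb, lay below the chaperonin median of 680.

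Other elements were found in up to 4 of the 36 windows each, with shares above those of all windows for some elements and below for others. The element of Pdr1 and Pdr3, TCCGCGGA, was found in the window of *RPN11* alone (2.78% of the 36 windows, against 0.22% of all windows). Of the Yap1 elements, TTAGTCA was found in none of the 36 windows (3.60% of all), and TTACTAA in those of *BLM10*, *PRE5*, *RPN7* and *RPN8* (11.1%, against 7.49% of all). The core of the early meiotic element URS1, GGCGGC, was found in 3 windows, those of *BLM10*, *PRE3* and *PRE10* (8.33%, against 5.12% of all). The core of the mid-meiotic element MSE, CACAAAA, which Ndt80 binds, was found in those of *PRE6* and *RPN3* (5.56%, against 7.71% of all). The window of *RPN4* held none of the elements searched, but sites farther than 250 bases before the start codon were not searched.

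Proteasome genes are spread over the genome, with few close pairs. In S288C, *PRE4* and *RPN12* have 1 gene between them, as do *RPT4* and *RPN8*, and *PRE2* and *RPN7* have 4. The levels were 2761 counts per kb for *PRE4* and 1376 for *RPN12*, 2022 for *RPT4* and 1755 for *RPN8*, and 2245 for *PRE2* and 1561 for *RPN7*.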

How the data were processed

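Poly(A) RNA of 3 *SPO11* and 3 *spo11-YF* cultures was sequenced. The authors trimmed the reads and used the nf-core pipeline (Trim Galore, STAR) with SK1 as the genome, counted them per gene with salmon, adjusted them with ComBat-Seq and normalized them with DESeq2. Tool versions are not given in the sources used here. The deposited signal used here is the authors' mean normalized count over all libraries. The batches are not given in the sources used here, and the effect of the adjustment on these means was not tested. The other 5 numeric columns hold the authors' comparison of the strains (fold change, its standard error, the statistic and p-values) and were not used. With no counts per library, the planned edgeR test was not run.

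Means were divided by coding length in kb (S288C R64, by systematic name). Percentiles are shares of genes with a lower value. Motifs were searched in R64 promoters. Motif letters, mismatches and distances from the start codon are given for R64, and no chromosome coordinates or longer stretches are printed, as the authors' genome was SK1. The named genes were all 36 members, with the highest and lowest of each other list, plus the pathway genes above the members' median, those with a PACE and a few further pathway genes chosen after their values were seen. Members and lists were chosen with earlier results of these data known. The functions were tested on simulated data. Python 3.11.15, numpy 2.4.6, pandas 2.3.3 and matplotlib 3.10.9 were used.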

Additional observations from a re-analysis of the deposited data

How the results depend on the processing

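No paired analysis was possible because only a pooled mean was used, without separate libraries. Alternatives that need counts (a replicate block, other normalizations, no filter and leaving out each replicate) were not run. A total of 23 other settings (no division by length, 200 bases added to the coding length, a minimum mean of 10, geometric means, another measure of spread, leaving out *SEM1*, matching by systematic name and other forms of the PACE) all stayed within 1.5 times the reported value. This limit is loose for the percentile, which cannot rise 1.5-fold, and for the count of matched members, which cannot exceed the number listed. The PACE core and the PACE with 1 mismatch could only keep or raise the count of 27, at most to 36. These forms could therefore not break the limit. The level without division by length is in counts rather than counts per kb, so its closeness says little. The median member lay between percentile 95.3 and 96.9, and the SD of the structural subunits between 0.47 and 0.54. The order of the subcomplex medians held with 200 bases added, but it changed with geometric means. The other base subunits, at 1730.3 counts per kb, then came below the ATPases, the beta ring and the alpha ring. The beta ring, at 1941 counts per kb, then came above the alpha ring, at 1847. Adding 200 bases was also applied, chosen after seeing the data, to the structural subunits within 2-fold of their median (31, against 32 reported) and to the members above the 90th percentile (34, against 35 reported).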
